A study of Mus musculus with 8 samples.

Results

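The angiopoietin-like genes studied here are Angptl1, Angptl2, Angptl4, Angptl6 and Angptl7, 5 genes in a table of 50462 mouse genes. They were taken by family name after Ensembl identifiers had been matched to symbols, because Angptl1 was among the largest increases in these same data. Angptl8, a further family gene with a row, is given by its counts. RNA-Seq was performed on medial knee cartilage caps from 8 male wild-type C57Bl/6J mice, with 1 library per mouse. The naive group comprised 4 mice that had no surgery, sampled at day 0 and aged 11 weeks. The DMM group comprised 4 mice sampled at day 42 after destabilisation of the medial meniscus, a surgical model of post-traumatic osteoarthritis in which a ligament of the medial meniscus is cut, here in the left knee, and aged 17 weeks. Which knee the naive mice gave was not stated. No sham-operated mice were analysed here, so surgery and the difference in age cannot be told apart.

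Angiopoietin-like proteins are secreted glycoproteins that resemble the angiopoietins, with a coiled-coil stretch near the amino end and, in most members, a fibrinogen-like domain at the carboxyl end. Unlike the angiopoietins they do not act as classical ligands of the endothelial receptor Tek, and several bind integrins or other surface proteins. Angptl4 and Angptl8 are known for inhibiting lipoprotein lipase, which releases fatty acids from circulating lipoproteins. Angptl1 is known as an inhibitor of vessel growth, Angptl2 as an inflammatory factor of adipose tissue and other stroma, and Angptl7 as a matrix-associated protein of the eye.

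Library totals ranged from 12479442.5 to 16548001.6 estimated counts. Of 10 marker lists of cell types, none held a gene at 0 in all libraries, and 10 of 10 chondrocyte markers were detected well enough to be tested. All markers of every other list were tested too, except for skeletal muscle, where 5 of 8 were. The outlier filter of DESeq2 left Acta1, Myh4 and Tnnt3 without a p. Their means were 22.7, 119.6 and 28.8 normalised counts, so low detection was not the reason. Marrow-lineage markers were also abundant. The summed normalised count of 8 erythroid markers was 155179 to 303130 in naive libraries and 79888 to 171640 in DMM libraries, and that of 8 neutrophil-lineage markers was 125210 to 187813 and 54963 to 112806. The samples are bulk tissue, so fewer cells of a type and less RNA per cell cannot be told apart.

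Angptl1 had the largest fold difference of the 5 genes. Its normalised counts, which are estimated counts divided by a size factor for each library, were 87.9, 77.2, 98.5 and 159.9 in naive replicates 1 to 4 and 928.0, 277.3, 983.7 and 329.4 in DMM replicates 1 to 4. Every DMM library lay above every naive library, and DMM replicates 1 and 3 were about alike and well above DMM replicates 2 and 4. The naive mean was 105.9 ± 37.0 and the DMM mean 629.6 ± 378.0 (SD, n = 4 each), a log2 fold change of 2.57 with a standard error of 0.52, or 5.95-fold. The highest DMM library held 3.55 times the count of the lowest. Because Angptl1 was chosen for this difference, it is given as a description with no test. Among the 805 called increases that averaged 100 or more normalised counts and whose groups stood apart, Angptl1 ranked 5th by fold change. The contrast that gave this rank is the one that chose Angptl1, so nothing is read from the rank. Just above Angptl1 stood Tnn (tenascin N), with a log2 fold change of 2.85, and just below it Hmcn1 (hemicentin 1), with 2.51.

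**Figure D1:**
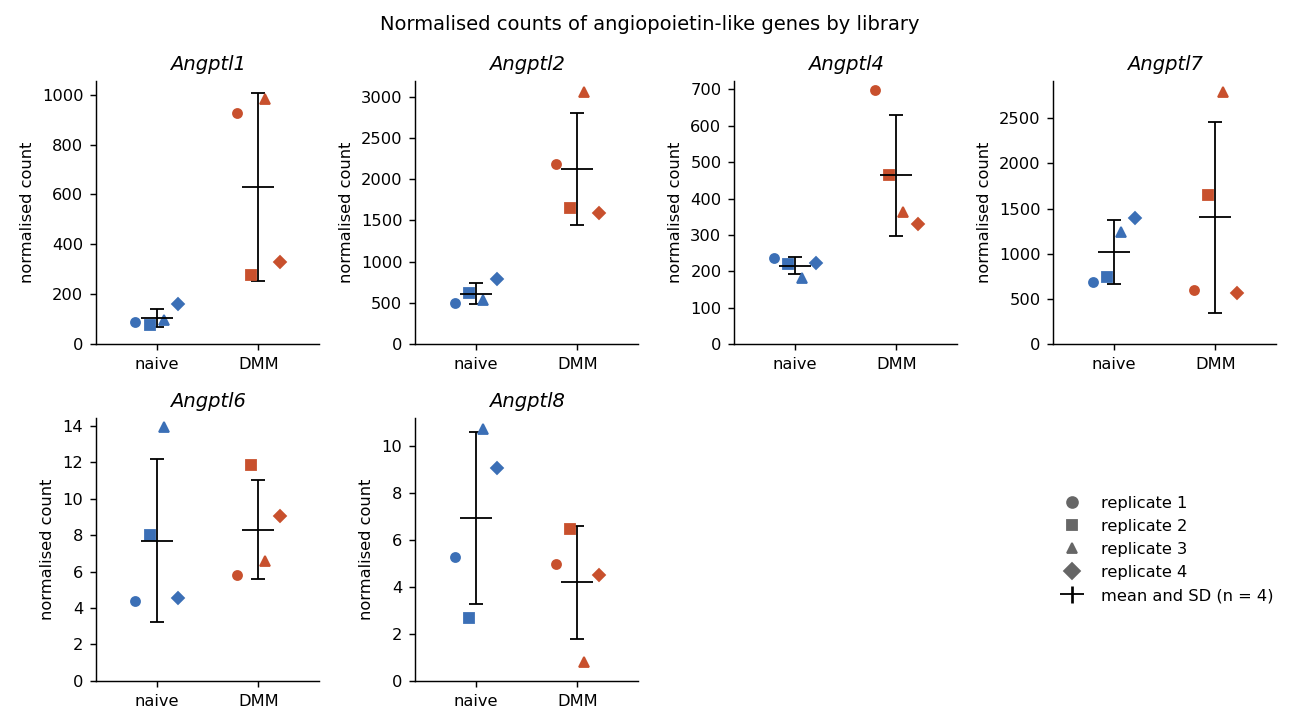
Normalised counts of the angiopoietin-like genes in each of the 4 naive and 4 DMM libraries, one point per mouse, with the group mean and SD. Angptl1, Angptl2 and Angptl4 have every DMM library above every naive library, whereas the groups overlap for Angptl6 and Angptl7.

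Angptl1 lies on chromosome 1 at 156838562 to 156861078 of GRCm38 (plus strand, GENCODE vM21), within an intron of Ralgps2 on the other strand. The 465 bases that its exons share with the antisense gene Gm37802 make up 16.4% of its exonic length, and Gm37802 had 0 rows in the table. Strand use in the counting was not stated, so reads of the antisense gene cannot be told apart from those of Angptl1. Of the 31-base words of Angptl1 transcripts, 15.6% also occurred in another gene on either strand and 0.714% on the same strand.

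Angptl2 was next in fold change. Normalised counts were 504.8, 614.6, 534.1 and 788.0 in naive replicates 1 to 4 and 2187, 1651, 3060 and 1588 in DMM replicates 1 to 4. All DMM libraries were above all naive libraries, and DMM replicate 3 was the highest. The mean rose from 610.4 ± 127.2 to 2122 ± 680.7 (SD, n = 4 each). The log2 fold change was 1.80 (95% interval 1.37 to 2.23), or 3.48-fold, with an adjusted p of 1.36e-13 in DESeq2 over all genes tested. Over 15 alternative settings its adjusted p ranged from 1.24e-16 to 0.00291. Angptl2 spans 33216069 to 33247717 of chromosome 2 (plus strand), within an intron of Ralgps1 on the other strand, with which its exons share no base.

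The windows around the start sites of the 2 genes with the highest fold changes are shown to compare their composition. They are RefSeq promoter windows of GRCm38.p6, from 250 bases before to 50 bases after the annotated start, at chr1:156838773-156839072 for Angptl1 and chr2:33215711-33216010 for Angptl2, both on the plus strand. Capitals mark matches to GGGCGG on either strand, here read as its complement.
Angptl1: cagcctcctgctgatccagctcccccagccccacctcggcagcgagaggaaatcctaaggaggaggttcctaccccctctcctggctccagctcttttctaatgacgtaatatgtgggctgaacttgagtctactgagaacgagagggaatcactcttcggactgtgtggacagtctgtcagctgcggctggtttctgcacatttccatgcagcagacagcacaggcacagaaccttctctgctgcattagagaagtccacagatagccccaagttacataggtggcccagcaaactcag
Angptl2: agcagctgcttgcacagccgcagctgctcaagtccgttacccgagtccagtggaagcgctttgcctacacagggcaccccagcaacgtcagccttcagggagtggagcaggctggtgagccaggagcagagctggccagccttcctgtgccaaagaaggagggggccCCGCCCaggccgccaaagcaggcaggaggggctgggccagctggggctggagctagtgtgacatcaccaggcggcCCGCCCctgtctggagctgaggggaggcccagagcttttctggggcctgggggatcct
GC content was 54.3% for Angptl1 and 66.7% for Angptl2, against a median of 52.7% over 32851 windows of the same length. The Angptl1 window held 6 CG pairs and the Angptl2 window 9. Short motifs were searched on both strands. The TATA box, spelled TATAAA, was in 13.6% of all windows, and the CCAAT box, spelled by its name, in 37.4%. The GC box, spelled GGGCGG, was in 35.7% of windows and the AP-1 site, spelled TGANTCA, in 7.81%. The TEAD site, spelled CATTCC, was in 14.7% and the hypoxia element, spelled ACGTG, in 19.6%. The Angptl1 window held none of them. The Angptl2 window held the GC box at 2 places.

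Angptl4, a fasting- and hypoxia-responsive inhibitor of lipoprotein lipase, was higher by a smaller factor. Its normalised counts were 237.4, 220.8, 181.9 and 222.2 in naive replicates 1 to 4 and 697.4, 465.5, 363.0 and 329.4 in DMM replicates 1 to 4. The groups did not overlap, and the high library was DMM replicate 1, not replicate 3. The mean rose from 215.6 ± 23.7 to 463.8 ± 166.1 (SD, n = 4 each), a log2 fold change of 1.11 (95% interval 0.66 to 1.55), or 2.15-fold, with an adjusted p of 3.89e-05 in DESeq2. Over the 15 alternative settings its adjusted p ranged from 1.46e-06 to 0.0133. Without DMM replicate 1 the log2 fold change was 0.84. DMM replicate 1 was also the library with the highest skeletal muscle marker sum of the DMM group. The part of this in the Angptl4 result was not tested. Angptl4 lies on chromosome 17 at 33773750 to 33781830 (minus strand).

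Angptl7 did not pass the test. Its normalised counts were 686.8, 747.7, 1246 and 1399 in naive replicates 1 to 4 and 601.2, 1655, 2790 and 567.7 in DMM replicates 1 to 4. DMM replicates 1 and 4 lay below every naive library and DMM replicates 2 and 3 above every naive library. The highest DMM library held 4.91 times the count of the lowest. The log2 fold change was 0.46 (95% interval -0.71 to 1.63), with an adjusted p of 0.65 in DESeq2. Without DMM replicate 3 it was -0.11, with an adjusted p of 0.911 in DESeq2, and over the 15 alternatives the adjusted p ranged from 0.421 to 0.953. DMM replicate 3 was also the library with the highest erythroid marker sum of the DMM group, and the part of this in the result was not tested. Angptl7 lies on chromosome 4 at 148495183 to 148500460 (minus strand), within an intron of Mtor.

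Angptl6, a circulating factor linked to energy metabolism, had few counts. Normalised counts were 4.40, 7.98, 13.9 and 4.54 in naive replicates 1 to 4 and 5.81, 11.8, 6.59 and 9.03 in DMM replicates 1 to 4. The groups overlapped, the log2 fold change was 0.10 (95% interval -1.10 to 1.31), and DESeq2 gave no adjusted p because the counts were below its filter. A difference was not detectable at this depth. Angptl6 lies on chromosome 9 at 20873808 to 20879727 (minus strand) and shares 265 exonic bases with A230050P20Rik on the other strand. A230050P20Rik averaged 342.0 normalised counts. Strand use in the counting was not stated, so its reads in the shared bases cannot be told apart from those of Angptl6. Angptl8, a lipase inhibitor that lacks the fibrinogen-like domain, had 2.66 to 10.7 normalised counts in naive and 0.82 to 6.45 in DMM libraries, and no adjusted p.

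Of the 5 members, 3 met the call of an adjusted p of 0.05 or less and at least 1.5-fold in DESeq2, all higher in DMM. Of all 17760 genes tested, 13.7% were called and 7.75% were called higher. The rule used this contrast, so nothing is read from that count. The values of the 4 members taken by name come from the same contrast as that of Angptl1. Of the 3 members taken by name that were tested, Angptl2 and Angptl4 were called in each of 8 fits that left out a library and in 7 other settings, and Angptl7 in 0 of these 15. Over all genes tested, groups did not overlap in 22.2%, with all DMM libraries above all naive libraries in 11.9% and below in 10.3%. Of the same 3 members, Angptl2 and Angptl4 had all DMM libraries above all naive libraries, and nothing is read from that count either. Of the genes tested, 5.92% were called lower.

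**Figure D2:**
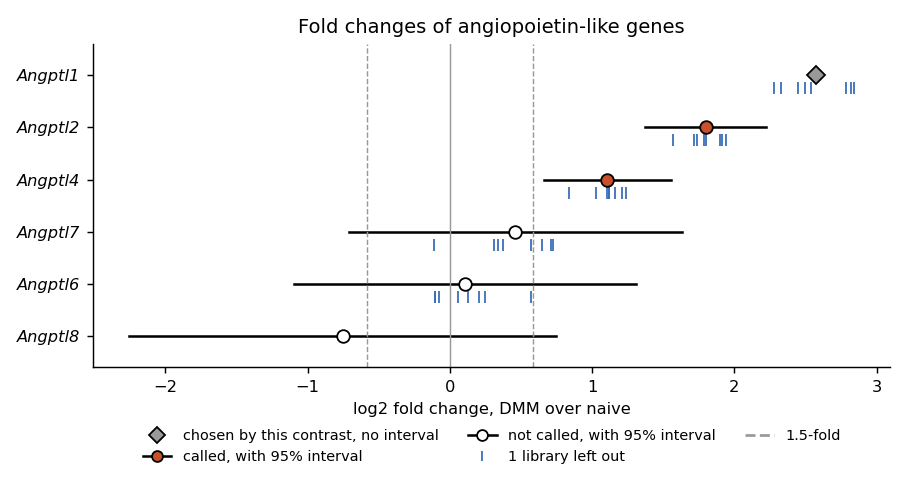
Log2 fold change of DMM over naive for each gene described here, with 95% intervals from DESeq2 and small ticks for the fits that leave out 1 library. Ticks are drawn for the 5 members, not for Angptl8. Angptl1 is drawn without an interval because it was chosen by this contrast, and the ticks of Angptl6 and Angptl7 lie on both sides of 0.

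Levels were compared between genes per kilobase of the longest annotated transcript. In naive libraries Angptl7 was the highest at 472.8 ± 165.0 normalised counts per kilobase (SD, n = 4), followed by Angptl2 at 171.5 ± 35.7, Angptl4 at 65.2 ± 7.16 and Angptl1 at 39.9 ± 14.0. The ranges of Angptl4 and Angptl1 overlapped, although Angptl4 was the higher in 4 of 4 libraries. Angptl8 and Angptl6 followed at 8.01 and 4.87, and their ranges overlapped. In DMM libraries Angptl7, at 650.7 ± 488.3, and Angptl2, at 596.1 ± 191.3, could not be ordered, each being the higher in 2 of 4 libraries. Angptl1 came next at 237.5 ± 142.6, above Angptl4 at 140.2 ± 50.2 in 3 of 4 libraries with overlapping ranges. With all annotated exons as the length, the Angptl2 level was 97.1 in naive and 337.5 in DMM, and Angptl7 was then above Angptl2 in 3 of 4 DMM libraries. Percentiles were taken among 17706 tested genes with a length, from the mean over all libraries of both groups, so they describe neither group alone. The mean level per kilobase was at the 94.7th percentile for Angptl7, the 91.3rd for Angptl2, the 72.0th for Angptl1 and the 63.8th for Angptl4.

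The sum over the 5 genes and Angptl8 per kilobase was 574.1, 623.3, 840.9 and 1011 in naive replicates 1 to 4 and 1464, 1492, 2639 and 944.3 in DMM replicates 1 to 4, so DMM replicate 4 lay within the naive range. Angptl1 took 4.42% to 5.97% of it in naive libraries and 7.01% to 23.9% in DMM libraries. Angptl2 took 17.8% to 27.7% and 31.1% to 47.3%. Angptl7 took 55.5% to 68.7% and 19.0% to 51.5%. These ranges did not overlap between groups, whereas those of Angptl4 did, at 6.54% to 12.5% and 4.16% to 14.4%. The shares sum to a whole, so they are not independent of each other.

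**Figure D3:**
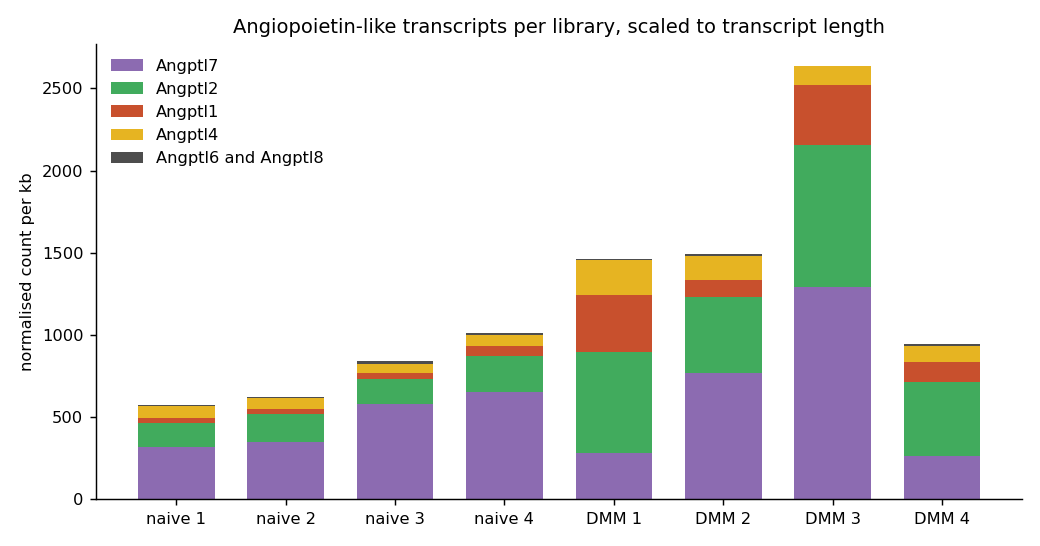
Stacked bars of normalised counts per kilobase of the longest transcript, 1 bar per library, with each gene described here as a segment and Angptl6 and Angptl8 drawn together. Angptl7 is the largest segment in all 4 naive libraries, and Angptl2 is larger than Angptl7 in DMM replicates 1 and 4.

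Across the 8 libraries, log2 levels of Angptl1 and Angptl2 had a Pearson r of 0.97, and of 0.86 after the mean of each group was removed. The 8 points share the difference between the groups, and the coefficients are descriptions. For Angptl1 and Angptl4 the values were 0.83 and 0.30, and for Angptl4 and Angptl7 they were -0.06 and -0.34. Angptl2 stood at 5.74, 7.97, 5.42 and 4.93 times the Angptl1 count in naive replicates 1 to 4 and at 2.36, 5.95, 3.11 and 4.82 times in DMM replicates 1 to 4. The ratio was lowest in DMM replicates 1 and 3, where Angptl1 was highest. Angptl1 is the count divided by, so nothing is read from this.

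Among 11038 genes averaging 100 or more normalised counts, the 2 most like Angptl1 over the 8 libraries were Hmcn1, with r of 0.991, and Thy1, a surface antigen of fibroblasts, with r of 0.990. After group centring the values were 0.981 and 0.967. Those most like Angptl2 were Rtn4rl1 (0.995) and Slc44a1 (0.992), those most like Angptl4 were Adcy3 (0.986) and Nt5dc3 (0.978), and those most like Angptl7 were Hmox2 (0.937) and Cul5 (0.918). Thy1 was among the 10 synovial fibroblast markers. Of these, 5 were called higher and 0 lower, against 7.75% and 5.92% of all genes tested. The summed level of the 10 markers was 33512 to 100780 in naive and 28466 to 52072 in DMM libraries. Of that sum, Prg4 (lubricin) alone was 30378 to 96845 and 24672 to 48057. Without Prg4, left out after its values were seen, the other 9 summed to 2715 to 3934 in naive and 3793 to 5390 in DMM libraries. In 5 of the 10, Thy1 among them, DMM replicates 1 and 3 lay above DMM replicates 2 and 4. This split was first seen in Angptl1, and Thy1 was named for its likeness to Angptl1. The share of all genes with the split was not counted, so nothing is read from the 5.

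Other marker lists were counted in the same contrast, in which 7.75% of all genes tested were called higher and 5.92% lower. Of 10 tendon and ligament markers, 7 were called higher and 0 lower. Their summed level was 130784 to 219497 in naive and 314355 to 430621 in DMM libraries. Col1a1 made up most of that sum in every library. In 5 of the 10 genes, Scx, Tnmd, Thbs4, Kera and Col1a1, DMM replicates 1 and 3 lay above DMM replicates 2 and 4, and in the other 5, Mkx, Fmod, Egr1, Tnc and Dcn, they did not. This tally was made after the values were seen, and Tnmd and Kera are given as 2 genes with the split. The split was that of Angptl1 and its share over all genes was not counted, so nothing is read from the tally. Tnmd (tenomodulin) had 7.04, 2.66, 16.1 and 14.7 normalised counts in naive and 69.7, 17.2, 153.9 and 33.4 in DMM replicates 1 to 4. Kera (keratocan) had 5.28, 10.6, 7.49 and 6.80 in naive and 78.8, 10.7, 103.7 and 9.93 in DMM replicates 1 to 4. The adipocyte marker Plin1, also chosen after its values were seen, was highest in DMM replicate 2, with 1477. Of the 8 adipocyte markers 0 were called, 4 having an unadjusted p of 0.05 or less in DESeq2 and 0 being called by edgeR, and their sum was 2188 to 4345 in naive and 2389 to 8606 in DMM libraries. Osteoblast and osteocyte markers were called higher in 7 of 8, with sums of 17259 to 25505 in naive and 36192 to 71535 in DMM libraries. Chondrocyte markers were called higher in 5 of 10 and lower in 1, with sums of 48470 to 75335 and 94944 to 174564. Endothelial markers were called higher in 4 of 8 and lower in 1, macrophage markers lower in 1 of 8, and skeletal muscle markers higher in 1 of 5 tested. The part of these cell types in the angiopoietin-like values was not tested.

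**Figure D4:**
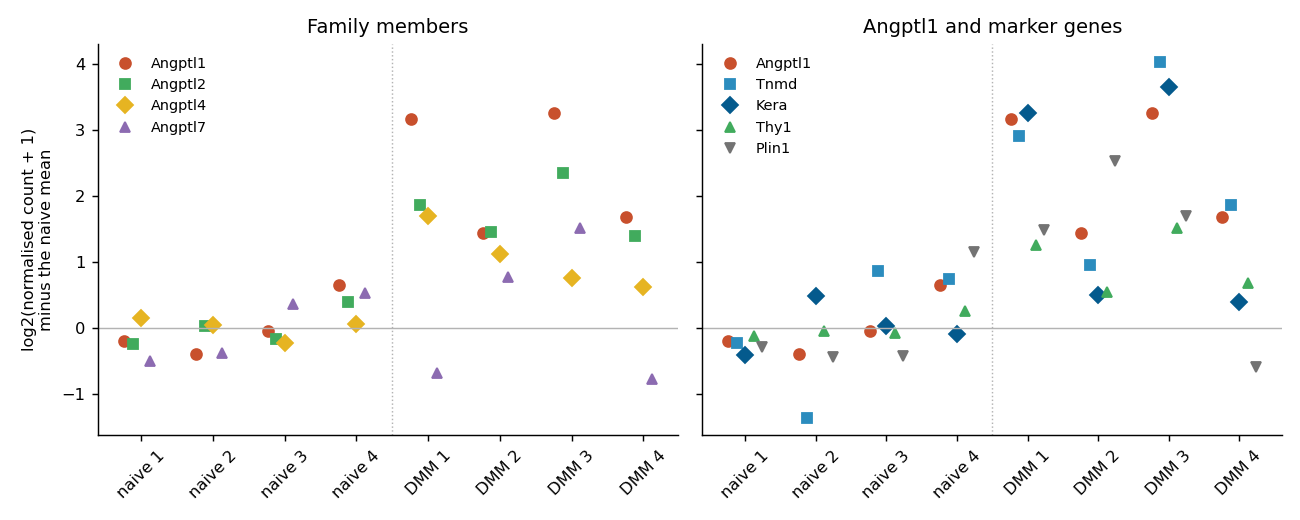
Log2(normalised count + 1) minus the naive mean in each library, for family members (left) and for Angptl1 beside the marker genes Tnmd, Kera, Thy1 and Plin1 (right). Angptl1, Tnmd and Kera are highest in DMM replicates 1 and 3, whereas Angptl4 is highest in DMM replicate 1 and Plin1 in DMM replicate 2. Tnmd, Kera and Plin1 were chosen after their values were seen. Of the 10 tendon and ligament markers, 5 had the split of Angptl1, and Mkx, Fmod, Egr1, Tnc and Dcn, not drawn, did not.

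Of 16 other genes for proteins with a fibrinogen-like domain, 11 were tested. Of these, 2 were called higher and 3 lower, against 7.75% and 5.92% of all genes tested. The median log2 fold change was -0.07, against -0.02 for all genes tested. Of the 4 tenascins on the list, 2 rose, Tnc from 13525 ± 2186 to 21559 ± 1754 normalised counts and Tnn from 412.4 ± 233.6 to 2963 ± 842.1 (SD, n = 4 each). Their adjusted p values in DESeq2 were 1.24e-05 and 5.62e-05. Tnr and Tnxb, named to complete the tenascins after their values were seen, had log2 fold changes of 0.35 and -0.07, with adjusted p values of 0.608 and 0.938 in DESeq2 and overlapping groups. Tenascins are matrix glycoproteins, and Tnc is also on the tendon marker list. The ficolins fell, with a log2 fold change of -0.89 for Fcnb and -0.83 for Fcna, and adjusted p values of 0.000255 and 0.00465 in DESeq2. Ficolins are lectins of innate immunity made by myeloid cells. All 8 neutrophil-lineage markers and 1 of 8 macrophage markers were called lower, against 5.92% of all genes tested. The part of neutrophil-lineage cells and macrophages in the ficolin values was not tested.

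Of 8 genes for cell-surface partners of the family and angiopoietin receptors, with a median log2 fold change of 0.38, 0 were called in DESeq2, because all 8 changed by less than 1.5-fold. All 8 had an adjusted p of 0.05 or less in DESeq2, as they had an unadjusted p. A positive fold change was found in 6 of them, against 8579 of all 17760 genes tested, and 2 were called by edgeR. The share of all genes at that adjusted p alone was not counted, so nothing is read from the 8. Itgav, an integrin chain, had a log2 fold change of 0.58 and an adjusted p of 0.000130 in DESeq2, just under 1.5-fold. The count was 4 without naive replicate 4, 2 without naive replicate 3 and 1 without naive replicate 2, DMM replicate 2, DMM replicate 3 or DMM replicate 4.

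Of 14 tested genes for lipases and lipoprotein handling, 2 were called higher and 0 lower, and the median log2 fold change was 0.30. Over all genes tested 13.7% were called and 7.75% called higher, so nothing is read from the count of 2. Vldlr, a lipoprotein receptor, rose from 510.3 ± 56.8 to 948.3 ± 115.0 (SD, n = 4 each), with an adjusted p of 4.69e-09 in DESeq2. Lrp1, a large endocytic receptor, had a log2 fold change of 0.67 and an adjusted p of 0.00137 in DESeq2, and its groups overlapped. Without naive replicate 1 the list had 1 call.

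Of 10 PPAR target genes, genes induced by the fatty-acid receptors that also induce Angptl4, 0 were called in DESeq2, with 2 at an unadjusted p of 0.05 or less and 0 called by edgeR. Fabp4, which is also on the adipocyte list, had a log2 fold change of 0.89 and an adjusted p of 0.0769 in DESeq2. The median log2 fold change of the PPAR targets was 0.19, and the list had 1 call without naive replicate 4 and 1 without DMM replicate 4. Of 11 hypoxia target genes, 2 were called higher: Vegfa, a vessel growth factor, with a log2 fold change of 0.63 and an adjusted p of 0.0075, and Ankrd37, with 1.01 and 0.00937, in DESeq2. The median was 0.11, and the list had 0 calls without naive replicate 1, 1 without naive replicate 2 and 1 without DMM replicate 4. Of 7 glucocorticoid target genes, 2 were called higher, Sgk1 with a log2 fold change of 0.87 and Klf9 with 0.76, with adjusted p values of 1.38e-05 and 0.000106 in DESeq2. Their list had a median of 0.41. Over all genes tested 7.75% were called higher, and nothing is read from the counts of the PPAR, hypoxia and glucocorticoid lists.

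Of 4 genes that hold one of these genes in an intron, 1 was called, against 13.7% of all genes tested. This was Dock6, which holds Angptl8, with a log2 fold change of 0.70 and an adjusted p of 0.00331 in DESeq2. It was lost without DMM replicate 1. The hosts of Angptl1 and Angptl2 did not pass, with log2 fold changes of 0.10 for Ralgps2 and -0.09 for Ralgps1 and adjusted p values of 0.770 and 0.803 in DESeq2.

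**Figure D5:**
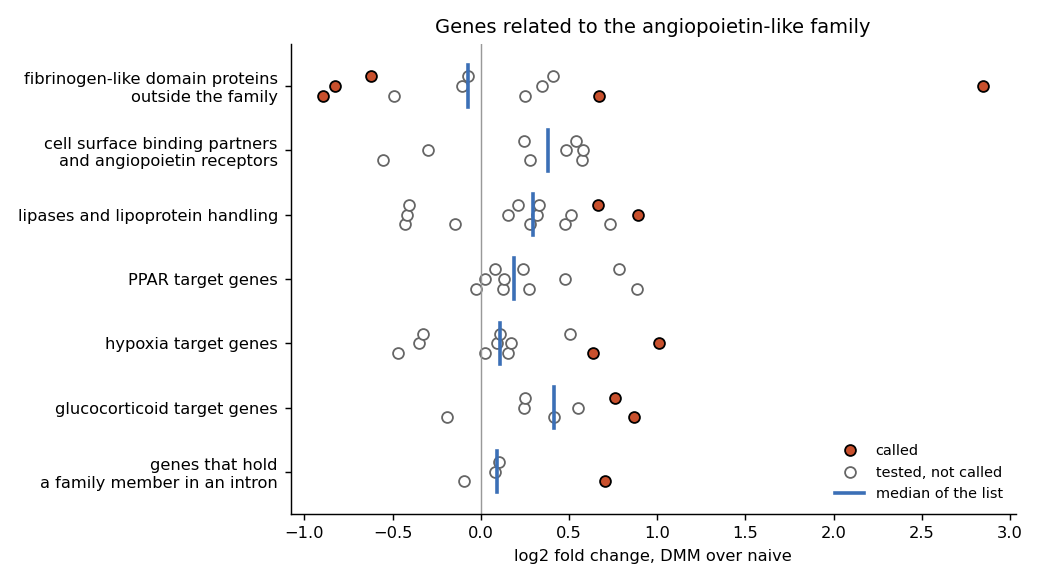
Log2 fold change of DMM over naive for each tested gene of 7 related lists of genes, with called genes marked and the list median drawn. The medians lie between -0.07 and 0.41, against -0.02 for all genes tested.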

How the data were processed

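RNA-Seq libraries of medial knee cartilage from 4 naive and 4 DMM mice were used. The authors trimmed reads, quantified transcripts with Kallisto and summed them to genes with tximport, and the deposited table holds estimated counts, 39.2% of them not whole. They were rounded here. The methods name a mouse build and an annotation release that do not match, and the labels and the methods name different library kits. Coordinates are from GENCODE vM21 (GRCm38). Symbols were found for 96.8% of rows.

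DESeq2 1.42.0 in R 4.3.3 (Wald test, no covariates, DMM over naive) was run on all genes. Calls required 1.5-fold or more and a p, adjusted by Benjamini-Hochberg over all genes, of 0.05 or less. Alternatives used edgeR 4.0.16, limma 3.58.1, other scalings and filters, a replicate block, and each library left out in turn. Fits were tested on simulated data. The members, lists and markers were chosen with earlier results of these data known. Named genes were the members, the genes called in each list (up to 4 by adjusted p, or the lowest where none was called) and the 2 most correlated with each member. Some family genes are not reported here. P-values set the difference between the groups against the spread between mice.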

Additional observations from a re-analysis of the deposited data

Results flagged for a closer look

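In 58 groups of 4 values examined for a library far from the others, 5 held one, and about 2.9 are expected by chance. Fcnb was 1071 normalised counts in naive replicate 4, against 1350 to 1386 in the other naive libraries. Itgav was 2136 in naive replicate 4, against 1565 to 1659. Vldlr was 425.7 in naive replicate 2, against 533.8 to 547.6. The summed skeletal muscle markers were 1075 in DMM replicate 1, against 161.6 to 247.2 in the other DMM libraries. The summed erythroid markers were 171640 in DMM replicate 3, against 79888 to 85577. None of the angiopoietin-like genes described had such a library.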

How the results depend on the processing

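Angptl2 and Angptl4 were called under all 15 alternatives and Angptl7 under 0. Angptl1, chosen by this contrast, is left out of this tally. Fold changes in the fits that left out 1 library ranged from 2.28 to 2.84 for Angptl1, 1.57 to 1.94 for Angptl2, 0.84 to 1.24 for Angptl4, -0.10 to 0.57 for Angptl6 and -0.11 to 0.72 for Angptl7 (log2). Angptl6 was -0.10 without naive replicate 1, -0.08 without naive replicate 4 and -0.10 without DMM replicate 2, and Angptl7 was -0.11 without DMM replicate 3. The cause was not tested.

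Scaling to total counts shifted genes averaging 10 or more counts to a median of 0.14 (log2), and 80.6% of its calls were higher in DMM, against 56.7% in DESeq2 as reported, with 489 genes lower. Under it 4 cell-surface genes, 5 lipase genes and 2 PPAR targets were called. Cell-surface calls were 2 with edgeR, 2 with limma-voom and 2 with TMM factors, and the count filter gave 1 PPAR target. Leaving out 1 library gave 1858 to 2842 genes called, 988 to 1649 higher and 769 to 1247 lower, 4 to 6 fibrinogen-like, 0 to 4 cell-surface, 1 to 3 lipase, 0 to 1 PPAR, 0 to 3 hypoxia, 2 to 3 glucocorticoid and 0 to 1 host genes. The cause of these shifts was not tested.

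Deviations from the group mean had correlations of 0.0498, 0.058, -0.119 and 0.117 between same-numbered libraries. The largest value, 0.209, was between naive replicate 3 and DMM replicate 4. Whether a number also stands for a shared batch cannot be told from these values. The replicate block called 2081 genes and 1 cell-surface gene, and Angptl2 and Angptl4 were called under it.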
